A study of Mus musculus with 9 samples.

Results

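The comparison took the 6 libraries of mice carrying a mutant H3.3 transgene as 1 group, whichever lysine was mutated, and set them against the 3 libraries of rtTA control mice, so that a gene stood out when both mutants departed from the controls in the same way. The 9 libraries are the whole series, and 12926 of the 37882 genes in the table were tested, those with at least 1 RPKM in at least 3 libraries. RPKM are reads scaled to transcript length and to library size. RNA came from LSK cells, the lineage-negative, Sca-1+ and c-Kit+ fraction of bone marrow in which blood stem cells and multipotent progenitors are found. All mice were 6 to 8 weeks old on a mixed B6/129 background, carried the doxycycline-responsive activator rtTA at Rosa26, and drank water with 2 mg/ml doxycycline and 10 mg/ml sucrose. The K9M mice also carried an H3K9M transgene at Col1a1, and the K36M mice an H3K36M transgene at the same locus, with 3 libraries each. The labels do not state the number of mice behind a library, and p-values measure only the spread between these libraries, which may be technical. No mice with an unmutated H3.3 transgene were included, so in this pooled comparison the mutations and the mere presence of an inducible H3.3 transgene at Col1a1 cannot be told apart.

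H3.3 is the replication-independent form of histone H3, placed at active genes, enhancers and repeats by dedicated chaperones. Methionine in place of lysine 9 or lysine 36 is known to act dominantly against the enzymes that methylate that residue: H3K9 methylation marks silent chromatin and H3K36 methylation marks transcribed gene bodies. The design asks what follows from either mutation, whichever residue is changed.

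Depth was estimated as the read total at which the largest share of low values became whole reads, given GENCODE M21 gene lengths. It was about 15860000 to 50320000 reads per library, a ratio of 3.17. Values of 3 libraries are given in the order of replicates 1 to 3. Between libraries, Pearson's r of log2 values across genes was 0.942 to 0.970 within groups and 0.932 to 0.969 between them. On the first principal component, which held 25.4% of the variance, rtTA 1 (-26.7) lay beside the K9M libraries (-24.9 to -17.8), away from rtTA 2 and 3. The sort markers did not pass the test. Kit, the c-Kit receptor, was at 88.1, 95.5 and 102 RPKM in rtTA 1 to 3 and 53.3 to 92.0 RPKM in the mutants (log2 difference -0.34, SE 0.16, limma adjusted p = 0.658). Ly6a, which encodes Sca-1, was at 292, 125 and 119.8 RPKM in rtTA 1 to 3 and 119 to 192 RPKM in the mutants (-0.11, SE 0.27, limma adjusted p = 0.927), and its sign turned when rtTA 1 was left out (0.31). Control library 3 stood apart in transcripts of mature neutrophils, and its values are given beside the results they touch.

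Against the rtTA controls, 22 genes passed limma at a Benjamini-Hochberg adjusted p under 0.05, which is 0.17% of those tested. Of these, 9 rose (0.0696%) and 13 fell (0.101%). The falls were mostly immediate early genes and their feedback regulators: Fos, Junb, Jund, Egr1, Nr4a1, Klf2, Klf4, Zfp36, Btg1, Btg2 and Rgs2, with Tcf7 and the immunoglobulin segment Igkv1-110. The rises were Ccnd1, Akr1c12, Nlrp1b, Mrvi1, the noncoding transcript AA465934 and 4 processed pseudogenes. AA465934, Gm8494 and Gm12657 have model or clone numbers for symbols. AA465934 and Gm8494 are named because their values were seen to pass. In all 22 genes the 6 mutant libraries lay entirely above or below the 3 control libraries, and both mutants moved in the same direction. The separation comes from the same values that gave the calls, and the shared direction follows from it, so neither adds to the calls. Over all tested genes the groups were apart in 555, or 4.29% (2.43% above and 1.86% below). At an unadjusted p under 0.05 there were 966 genes (7.47%).

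The number of calls depended on which library was left out. It was 1 without rtTA 3, 3 without rtTA 2, 5 without K36M 1 and 5 without K36M 2, 7 without K9M 1, 8 without K9M 3 and 13 without K36M 3, against 20 without rtTA 1 and 17 without K9M 2. All 22 genes kept their sign in each of these 9 fits, which follows from their groups being apart. Eif5al3-ps was called in all 9, Gm8494 and Btg2 in 8 and Akr1c12 in 7. Btg1 and Klf4 were called in none of them.

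Immediate early genes are transcribed within minutes of a growth factor, cytokine or stress signal, including the handling of tissue, without new protein synthesis. Preformed factors drive them: CREB at the cyclic AMP response element (CRE), and serum response factor at the CArG box. Many encode transcription factors of the AP-1, EGR, KLF and NR4A families, and in blood stem cells several of these are linked to quiescence. The promoters of 3 of the called genes are shown because they carry such sites. They are the 250 bases before the gene start in RefSeq (GRCm38.p6), written 5′ to 3′ on the gene's strand, at chr12:85473640-85473889 for Fos (+ strand), chr15:101266596-101266845 for Nr4a1 (+ strand) and chr1:134079156-134079405 for Btg2 (- strand). The Nr4a1 window lies inside the longer GENCODE M21 gene model, in an intron. Capitals mark CRE half-sites (TGACG or CGTCA) and a TATA box (TATAAA) in Fos, CRE half-sites in Nr4a1 and a full CRE (TGACGTCA) in Btg2.

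Fos promoter: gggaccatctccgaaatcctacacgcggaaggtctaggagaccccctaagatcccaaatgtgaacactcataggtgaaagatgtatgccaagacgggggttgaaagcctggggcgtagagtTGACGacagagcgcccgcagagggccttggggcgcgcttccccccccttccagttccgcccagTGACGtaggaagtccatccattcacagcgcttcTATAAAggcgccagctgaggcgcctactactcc

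Nr4a1 promoter: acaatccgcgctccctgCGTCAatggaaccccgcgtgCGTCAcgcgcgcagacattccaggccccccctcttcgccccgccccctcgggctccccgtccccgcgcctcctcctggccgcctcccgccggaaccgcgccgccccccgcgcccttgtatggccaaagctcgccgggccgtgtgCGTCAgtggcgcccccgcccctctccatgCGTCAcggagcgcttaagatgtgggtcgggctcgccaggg

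Btg2 promoter: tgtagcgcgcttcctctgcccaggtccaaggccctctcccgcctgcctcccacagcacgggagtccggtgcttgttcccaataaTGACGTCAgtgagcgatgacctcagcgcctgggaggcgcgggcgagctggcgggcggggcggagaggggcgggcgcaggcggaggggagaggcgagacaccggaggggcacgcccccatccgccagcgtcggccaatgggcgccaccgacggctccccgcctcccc

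Of the 13 genes that fell, 11 were found in the promoter table by symbol. The CRE half-site TGACG, searched on both strands, was in 8 of them (Btg1, Btg2, Fos, Junb, Klf2, Klf4, Nr4a1 and Rgs2), and in 26.9% of 10965 promoters of tested genes and 17.8% of all 32851. Each full CRE also holds half-sites, and Btg2 was the only one of the 11 with a full CRE (2.55% of promoters of tested genes). A CArG box was in Tcf7 and Zfp36 (1.08%), and the TATA letters TATAAA in Btg1, Fos and Tcf7 (6.21%). In Tcf7 the TATA letters were on the opposite strand, at -8 to -3 from the gene start, inside its CArG box at -10 to -1. The AP-1 letters TGANTCA were in none of the 11 (4.42%). Of 6 genes that rose and were in the table, AA465934 held a CRE half-site and H3f3c the AP-1 letters. An NF-kB site was in Fos among the falls and Akr1c12 among the rises (4.48%). These matches are letters within 250 bases and no measurement of binding.

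Among the AP-1 subunits, Fos, the partner of the Jun proteins (ENSMUSG00000021250, chr12:85473890-85477273), was at 468, 458 and 436 RPKM in rtTA 1 to 3, at 183, 243 and 199 RPKM in K9M, and at 181, 197 and 112 RPKM in K36M. Every control library was above every mutant library, with K9M 2 the highest and K36M 3 the lowest of the mutants. In bulk RNA, fewer cells of a type and less RNA per cell cannot be told apart. The log2 difference was -1.32 (SE 0.20, limma adjusted p = 0.0375), or -1.13 in K9M and -1.51 in K36M. Junb (chr8:84974484-84978718), an AP-1 subunit that restrains stem cell expansion, was at 173, 202 and 192 RPKM in the controls, 93.2, 105 and 112 in K9M and 85.5, 108 and 72.6 in K36M. The 2 mutants overlapped each other and neither reached the controls. Junb fell by 0.99 in log2 units (SE 0.14, limma adjusted p = 0.0372). Jund (chr8:70698949-70700616), the most constitutive of the Jun proteins, was at 61.1, 84.4 and 86.4 RPKM in rtTA 1 to 3, 44.5, 36.5 and 46.3 RPKM in K9M and 36.6, 42.9 and 32.6 RPKM in K36M. It fell by 0.94 (SE 0.15, limma adjusted p = 0.0432), the highest adjusted p of the 22.

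Jun and Fosb, the other inducible AP-1 genes of that group, did not pass. Fosb was at 28.4 to 53.5 RPKM in the controls and 2.69 to 11.9 RPKM in the mutants (log2 difference -2.59, SE 0.44, limma adjusted p = 0.0700). Jun was at 69.5, 133 and 117 RPKM in rtTA 1 to 3 against 18.8 to 50.1 RPKM (-1.57, SE 0.31, limma adjusted p = 0.150). In both genes the groups were apart without overlap. Fosl1 overlapped between groups (-0.32, limma adjusted p = 0.796).

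Egr1 and Nr4a1 had large falls. Egr1, a zinc finger factor tied to stem cell quiescence and retention in the marrow, was at 70.0, 134 and 163 RPKM in rtTA 1 to 3, 29.8, 35.7 and 32.4 in K9M and 20.6, 35.2 and 16.7 in K36M. Control library 1 was the lowest of the controls and still above the highest mutant library, K9M 2. Egr1 fell by 2.05 (SE 0.30, limma adjusted p = 0.0375). Nr4a1 (chr15:101254269-101274795), an orphan nuclear receptor that restrains proliferation of stem cells, was at 42.2, 71.5 and 80.2 RPKM in rtTA 1 to 3, 16.6, 20.8 and 19.4 in K9M and 16.2, 18 and 8.44 in K36M. K36M 3 was the lowest of all libraries and rtTA 1 again the lowest control. Nr4a1 fell by 1.93 (SE 0.28, limma adjusted p = 0.0375). Egr2 and Egr3 did not pass (-1.27 and -2.39, both with limma adjusted p = 0.0945), with Egr2 at 2.40 to 3.72 RPKM in controls and 0.632 to 1.69 RPKM in mutants.

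The zinc finger factors Klf2 and Klf4 both fell, and Klf6 and Klf10 did not pass. Klf2 (chr8:72319033-72321656), which keeps lymphocytes quiescent, was at 9.69, 25.3 and 23.2 RPKM in rtTA 1 to 3, 3.13, 5.43 and 3.14 in K9M and 3.12, 5.38 and 2.43 in K36M. Control library 1 was again nearest to the mutants, and K9M and K36M overlapped. Klf2 fell by 2.16 (SE 0.32, limma adjusted p = 0.0375). Klf4 (chr4:55527143-55532466) was at 5.50, 4.64 and 6.05 RPKM in the controls, 2.52, 2.90 and 2.62 in K9M and 2.87, 2.88 and 2.12 in K36M, and fell by 0.90 (SE 0.14, limma adjusted p = 0.0375).

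Of the list of AP-1 and early response transcription factors, 26 of 27 members were tested. Of these, 7 passed as lower (beside 0.101% of all tested genes) and 0 as higher, and 24 differences were negative. In 16 (61.5%, beside 1.86% of all tested genes) every mutant library was below every control. The median difference was -0.83 (-0.70 in K9M and -0.93 in K36M), beside 0.01 over all tested genes. The positive differences were those of Srf (0.08) and Ier5l (0.03), neither called. Myc, the growth regulator, was not called either (-0.13, 68.9 to 109 RPKM in controls and 72.6 to 92.6 RPKM in mutants). The list was known to move when it was chosen, so its count is a description. After quantile normalization 2 members were called. With the replicate number as a block 2 were called, and Fos, Junb, Jund, Egr1, Nr4a1 and Klf4 no longer passed. The calls also depended on single libraries: no member was called without K9M 1, K9M 3, K36M 1, K36M 2, rtTA 2 or rtTA 3. Over the 9 leave-outs the median was between -0.89 and -0.73. Members apart with all libraries stay apart when 1 is left out, so that count could only hold or grow (16 to 20).

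**Figure D1:**
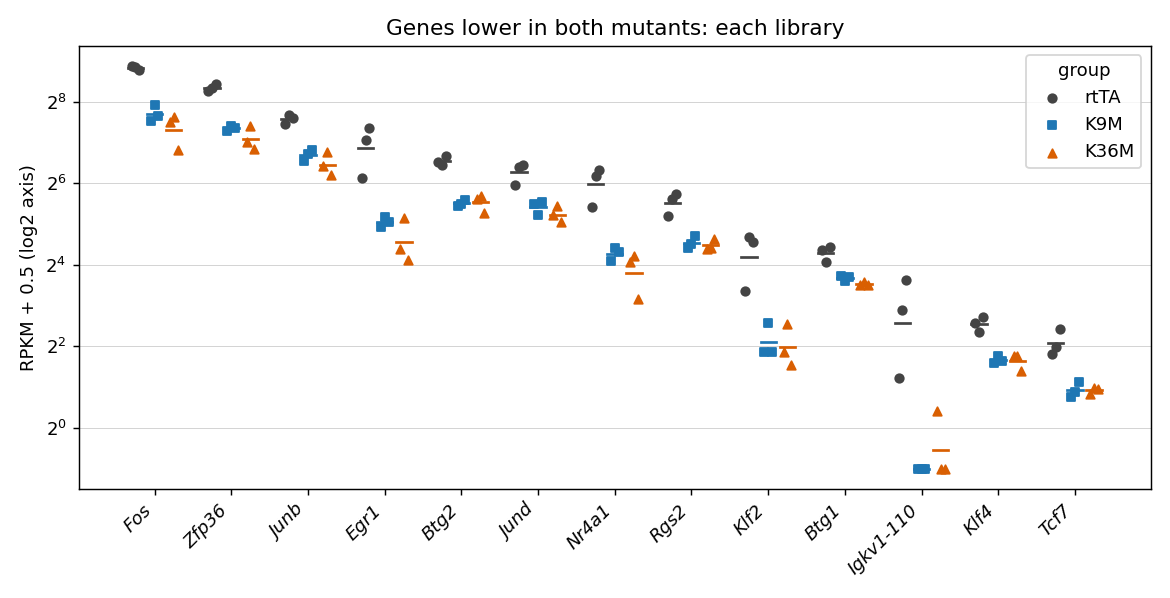
Level of the 13 genes that fell, as RPKM + 0.5 on a log2 axis, in each library of rtTA (circles), K9M (squares) and K36M (triangles), with short lines at the group means of the log2 values. In every gene the 3 control points lie above the 6 mutant points, from Fos at 436 to 468 RPKM in the controls down to Tcf7 at 3.03 to 4.86 RPKM.

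Zfp36, Btg1, Btg2 and Rgs2, which also fell, encode proteins that limit mRNA lifetime, proliferation or receptor signals. Zfp36 (chr7:28376784-28380253), which encodes tristetraprolin, a protein that binds AU-rich elements and hastens decay of cytokine and early response mRNAs, was at 306, 322 and 346 RPKM in rtTA 1 to 3, 156, 169.7 and 162 in K9M and 128, 169.9 and 115 in K36M. The groups were far from overlap, and Zfp36 fell by 1.13 (SE 0.14, limma adjusted p = 0.0185). Btg2 (chr1:134075170-134079120), an antiproliferative p53 target that recruits the deadenylation machinery, was at 91.1, 87.1 and 100.5 RPKM in the controls, 43.1, 44.6 and 47.4 in K9M and 48.6, 51.4 and 38.2 in K36M. The 2 mutants overlapped, and the log2 difference was -1.04 in K9M, -1.01 in K36M and -1.02 pooled (SE 0.10, limma adjusted p = 0.0075). Btg1 (chr10:96617006-96622809), its paralog, was at 20, 16.3 and 21 RPKM in the controls against 11.6 to 12.8 in K9M and 10.8 to 11.5 in K36M, and fell by 0.68 (SE 0.10, limma adjusted p = 0.0375). Of 10 mRNA decay and antiproliferative genes tested, these 3 passed (beside 0.101% of all tested genes called lower), all 10 differences were negative, 5 were apart (50.0%, beside 1.86% of all tested genes), and the median was -0.47. Zfp36l2 had -0.21 in K9M and -1.02 in K36M and was not called (limma adjusted p = 0.659). Without 1 library, 0 (without rtTA 3) to 2 of the 10 were called. The number apart could only hold or grow in these fits, and was 5 to 9.

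Rgs2 (chr1:143999338-144004161), which shortens signals of Gq-coupled receptors, was at 35.9, 48.1 and 53.2 RPKM in rtTA 1 to 3, 20.8, 22.4 and 25.5 in K9M and 20.5, 20.8 and 24.2 in K36M. The mutant libraries spanned a narrow range below the controls, and Rgs2 fell by 1.00 (SE 0.13, limma adjusted p = 0.0197). It was the 1 of 19 tested members of the MAP kinase and G protein feedback list that passed (beside 0.101% of all tested genes called lower). There the median was -0.23, with -0.15 in K9M and -0.61 in K36M. Of its members 6 were apart, all lower (31.6%, beside 1.86% of all tested genes). Dusp1, Dusp2 and Dusp5, phosphatases that switch off MAP kinases, were apart and not called (-0.80, -1.26 and -1.17, limma adjusted p = 0.454, 0.530 and 0.294). Rgs1 was at 11.4, 27.1 and 19.3 RPKM in the controls and 3.17 to 8.21 RPKM in the mutants, and did not pass (-1.57, limma adjusted p = 0.171).

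Lists of other stress and growth arrest programs held few or no calls. Of 15 NF-kB subunits and feedback genes 0 passed and 3 were apart, all lower (beside 1.86% of all tested genes, median -0.12). The nearest were Tnfaip3, which encodes the NF-kB inhibitor A20, at 4.04 to 4.76 RPKM in controls and 1.97 to 2.77 RPKM in mutants (-0.79, SE 0.13, limma adjusted p = 0.0679), and Nfkbiz (-0.84, SE 0.14, limma adjusted p = 0.0802). Of 15 heat shock genes 0 passed and 0 were apart (median -0.10). Hspa1a was at 4.37 to 10.9 RPKM in the controls and 2.18 to 6.94 RPKM in the mutants, with overlap. Of 19 p53 targets only Btg2 passed and 4 were apart, all lower (21.1%, beside 1.86% of all tested genes, median -0.18). Of 7 CDK inhibitors none was called or apart, with Cdkn1a, the p21 inhibitor, at 21.7 to 34.3 RPKM in controls and 16.0 to 33.2 RPKM in mutants.

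Markers of other cell types were read beside these falls, since the sorted fraction can hold some maturing cells. The mature neutrophil markers had 0 of 19 members called and 0 apart, and 13 at an unadjusted p under 0.05, all lower (beside 3.20% of all tested genes). Their summed level was 852 to 6905 RPKM in the controls, 562 to 1202 RPKM in K9M and 328 to 667 RPKM in K36M, and no marker was at 0 in all 9 libraries. Camp, a granule antimicrobial peptide, was at 101, 57.0 and 432 RPKM in rtTA 1 to 3, against 13.9 to 72.9 RPKM in the mutants. Control library 3 was the highest, and without it the list's median moved from -1.77 to -0.81 and the number at unadjusted p under 0.05 and lower moved from 13 to 4. Averaged over members, the log2 level of the neutrophil markers was 4.47, 3.86 and 6.54 in rtTA 1 to 3 and 2.77 to 4.12 in the mutants, and that of the early response list was 4.49, 4.84 and 4.77 in rtTA 1 to 3 and 3.37 to 3.96 in the mutants. Without rtTA 3 the early response median was -0.78 and 0 members were called. The number apart was 16, which could not fall below its value with all 9 libraries. The part of neutrophil RNA in the early response falls was not tested.

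Among B lineage transcripts 1 immunoglobulin segment fell, and no marker of the B lineage list was called. Igkv1-110 (chr6:68270485-68271267), an immunoglobulin kappa variable segment, was at 1.85, 6.95 and 11.8 RPKM in rtTA 1 to 3. It was listed at 0 in all 3 K9M libraries and in K36M 2 and 3, and at 0.833 RPKM in K36M 1. It fell (-3.35 on the log2(RPKM + 0.5) scale, SE 0.51, limma adjusted p = 0.0375), a size that depends on the pseudocount. The groups did not overlap, but the segment belongs to a family of like sequences, and reads may be divided among them. Of 14 tested B lineage markers 0 were called, 8 were at an unadjusted p under 0.05, all lower (beside 3.20% of all tested genes), and 5 were apart, all lower (35.7%, beside 1.86%). The median was -1.11 (-1.36 in K9M and -0.81 in K36M). Their summed level was 306 to 624 RPKM in the controls, 198 to 275 RPKM in K9M and 224 to 276 RPKM in K36M. Igj, the joining chain of secreted antibodies, was at 3.31, 4.47 and 11 RPKM in the controls, 0.469 to 0.831 in K9M and 1.30 to 2.65 in K36M (-1.88, SE 0.41, limma adjusted p = 0.227). Pou2af1, a B cell coactivator, overlapped (-1.29, limma adjusted p = 0.361). The part of B lineage RNA in the falls of the early response genes was not tested. The mean log2 level of the B lineage markers was 2.66, 3.34 and 3.29 in rtTA 1 to 3, the same order of controls as in the early response list. It was 1.21 to 1.90 in K9M and 1.94 to 2.75 in K36M, beside early response means of 3.75 to 3.95 and 3.37 to 3.96.

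Tcf7 (chr11:52252371-52283014) encodes TCF-1, the Wnt-responsive factor that starts T lineage development and is also present in early progenitors. It was at 3.03, 3.44 and 4.86 RPKM in rtTA 1 to 3, 1.2, 1.33 and 1.7 in K9M and 1.27, 1.48 and 1.43 in K36M. The groups were apart, and the differences in K9M and K36M were both -1.15, with -1.15 pooled (SE 0.17, limma adjusted p = 0.0375). Of 22 T and NK lineage markers 7 were tested, and the remaining members, the Cd3d, Cd3e and Cd3g receptor genes among them, reached 1 RPKM in fewer than 3 libraries. Tcf7 was the only member called (beside 0.101% of all tested genes called lower). Nkg7 was apart in the other direction, at 89.3 to 94.3 RPKM in controls and 98.3 to 144 RPKM in mutants (0.44, limma adjusted p = 0.454). Il7r, the receptor of lymphoid progenitors, was at 2.92 to 3.47 RPKM in controls and 0.862 to 2.28 RPKM in mutants, apart but not called (-0.82, limma adjusted p = 0.489). Of 13 lymphoid priming genes 0 passed (median -0.16).

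**Figure D2:**
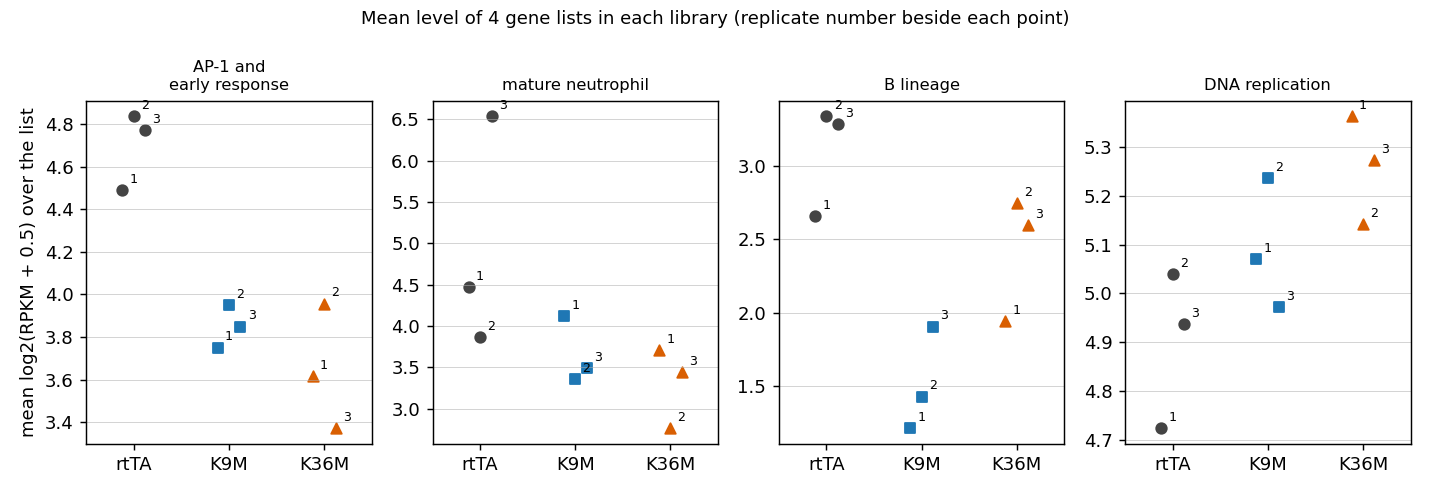
Mean of log2(RPKM + 0.5) over the tested members of 4 gene lists in each library, with the replicate number beside each point and a separate vertical scale in each panel. Early response means are 4.49 to 4.84 in rtTA and at most 3.96 in the mutants, while rtTA 3 alone stands high for neutrophil markers.

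Among the rises, Ccnd1 (chr7:144929931-144939925) encodes cyclin D1, the growth-factor-responsive cyclin that moves cells from G1 toward S phase. It was at 12.1, 11.1 and 11.1 RPKM in rtTA 1 to 3, 20.8, 17.5 and 21.0 in K9M and 20.4, 20.4 and 22.3 in K36M. Controls and mutants were each tight and well separated, with K9M 2 the lowest mutant. Ccnd1 rose by 0.81 in log2 units (SE 0.09, limma adjusted p = 0.0132), or 1.75-fold, with 0.76 in K9M and 0.85 in K36M. The other D cyclins were not called: Ccnd2 had a log2 difference of 0.11 (limma adjusted p = 0.809) and Ccnd3 of -0.12 (limma adjusted p = 0.843). Both were looked up after Ccnd1 was seen to pass.

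DNA replication genes, which act after cyclin D, did not pass in any case. All 26 tested had positive differences between 0.03 and 0.53, with a median of 0.28 (0.23 in K9M and 0.34 in K36M). Of them 14 were at an unadjusted p under 0.05, all higher (beside 4.27% of all tested genes). The groups were apart in 5, all higher (19.2%, beside 2.43% of all tested genes). Mcm5, a subunit of the replicative helicase, was at 78.1, 92.9 and 103 RPKM in rtTA 1 to 3, 112 to 122 in K9M and 111 to 143 in K36M (0.43, SE 0.12, limma adjusted p = 0.494). Fen1, the flap endonuclease, was at 25.4 to 27.4 RPKM in the controls and 29.9 to 41.8 RPKM in the mutants (0.35, limma adjusted p = 0.530). Control library 1 was lowest in the list mean (4.72, against 4.94 and 5.04 in rtTA 3 and 2). Without it the median was 0.18 and 5 members were at an unadjusted p under 0.05. Under quantile normalization the median was 0.19. Mitosis genes had 0 of 24 called, a median of 0.23, and 0.05 in K9M against 0.41 in K36M. Mki67, the proliferation marker, was at a mean of 34.8, 33.3 and 44.9 RPKM in rtTA, K9M and K36M (0.18, limma adjusted p = 0.877).

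Akr1c12 (chr13:4268176-4279433), an aldo-keto reductase of a cluster acting on steroids and other carbonyls, was at 2.78, 2.40 and 2.93 RPKM in rtTA 1 to 3, 8.66, 10.0 and 17.3 in K9M and 12, 13.1 and 8.4 in K36M. All mutant values were above the controls, with K9M 3 the highest. It rose by 1.87 (SE 0.21, limma adjusted p = 0.0124). Its transcript is 94.5% identical to that of the neighbouring family member Akr1c13 over 1262 bases, so reads may be exchanged. Akr1c13 was at a mean of 26.9, 42.9 and 33.9 RPKM in rtTA, K9M and K36M, and was not called (0.50, limma adjusted p = 0.489). Mrvi1 (chr7:110868266-110982461), a substrate of cyclic GMP-dependent kinase that restrains calcium release, was at 0.279, 0.401 and 0.538 RPKM in the controls, 1.68, 1.75 and 2.05 in K9M and 2.49, 2.82 and 2.89 in K36M. The 3 groups were ordered without overlap, and Mrvi1 rose by 1.61 (SE 0.21, limma adjusted p = 0.0197). The difference between the mutants, 0.48, did not pass (limma adjusted p = 0.199).

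Nlrp1b and AA465934 lie on chromosome 11, as does Col1a1, the locus of both transgenes (94936224 to 94953042). Nlrp1b (chr11:71153102-71230733), an inflammasome sensor, was at 0.189, 0.198 and 0.424 RPKM in rtTA 1 to 3, 1.49, 1.42 and 1.7 in K9M and 1.45, 1.56 and 1.68 in K36M. It rose by 1.42 (SE 0.18, limma adjusted p = 0.0197), and the values of the 2 mutants overlapped. AA465934 (chr11:83291699-83294632), a transcript with no annotated coding sequence, was at 6.81, 3.43 and 2.23 RPKM in the controls, 29.6, 22.5 and 19 in K9M and 23.0, 21.1 and 15.0 in K36M, and rose by 2.35 (SE 0.28, limma adjusted p = 0.0180). Xaf1, an interferon-inducible promoter of apoptosis in the same region, was at 3.18, 3.58 and 3.47 RPKM against 5.35 to 8.93 RPKM and did not pass (1.01, SE 0.16, limma adjusted p = 0.0555). Of the called genes 3 (13.6%, with Tcf7) were on chromosome 11, beside 8.56% of tested genes. Within 25 Mb of Col1a1, 615 genes were tested, and 7 (1.14%) had an unadjusted p under 0.001, beside 0.406% on other chromosomes. The groups were apart in 4.07% of the 615 and in 4.30% on other chromosomes. These 7 were AA465934, Nlrp1b, Xaf1, Slfn8, Ccl3, Dhx40 and 0610010K14Rik, at -24.7 to -8.17 Mb from Col1a1. Slfn8 and Ccl3 were lower in the mutants (-1.0 and -1.75, limma adjusted p = 0.104 and 0.164). The window was chosen after the values were seen. In mice of mixed background that carry an insertion at Col1a1, strain differences linked to it cannot be told apart from effects of the transgenes. Col1a1 itself was at 0.0596 to 0.451 RPKM in all libraries, below the filter.

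Of the 22 called genes, 4 (18.2%) were pseudogenes, all of them processed, beside 8.01% of tested genes that were processed or other pseudogenes. Reads of such copies and of their parent genes may be exchanged in alignment. The rise that held in every leave-out was Eif5al3-ps (ENSMUSG00000043618, chr5:90132229-90132675), a copy of the translation factor gene Eif5a with 97.2% identity over 434 bases. It was at 4.05, 3.31 and 1.08 RPKM in rtTA 1 to 3, 41.6, 43.7 and 39.1 in K9M and 51.8, 43.3 and 51.0 in K36M. The mutants were in a tight range far above the controls, and the log2 difference was 3.91 (SE 0.28, limma adjusted p = 0.000726). Eif5a itself was at means of 372, 401 and 447 RPKM in rtTA, K9M and K36M and was not called (0.19, limma adjusted p = 0.712). Gm8494 (chr5:146574888-146576120), a copy of Smarce1 (98.9% identity over 1233 bases), was at 0.130, 0.763 and 0 RPKM in rtTA 1 to 3, 7.34, 4.30 and 6.50 in K9M and 9.39, 4.22 and 7.88 in K36M. It rose by 3.22 (SE 0.33, limma adjusted p = 0.0075), while Smarce1, a subunit of the BAF remodelling complex, was at 21.3, 21.4 and 20.1 RPKM in rtTA, K9M and K36M (-0.04, limma adjusted p = 0.916).

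H3f3c and Gm12657 are copies of H3f3a, an H3.3 gene (99.0% and 98.5% identity over 411 bases). H3f3c (chr2:119665626-119666036) was at 214, 238 and 315 RPKM in rtTA 1 to 3, 912, 807 and 871 in K9M and 2311, 1588 and 2115 in K36M. The 3 groups were ordered without overlap. It rose by 2.37 (SE 0.36, limma adjusted p = 0.0375). Gm12657 (chr4:94599385-94599795) was at 2.66, 0.392 and 2.12 RPKM in the controls, 9.94, 7.98 and 17.8 in K9M and 15.3, 13.6 and 26.5 in K36M, and rose by 2.91 (SE 0.43, limma adjusted p = 0.0375). H3f3a was at 256, 192 and 224 RPKM in rtTA 1 to 3, 319, 284 and 296 in K9M and 489.8, 409 and 480.4 in K36M. It was apart but not called (0.74, SE 0.20, limma adjusted p = 0.489). H3f3b, the second gene for that protein, overlapped (-0.17, SE 0.11, limma adjusted p = 0.708). Transgene reads counted at H3f3a and its copies cannot be told apart from those of the resident genes.

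**Figure D3:**
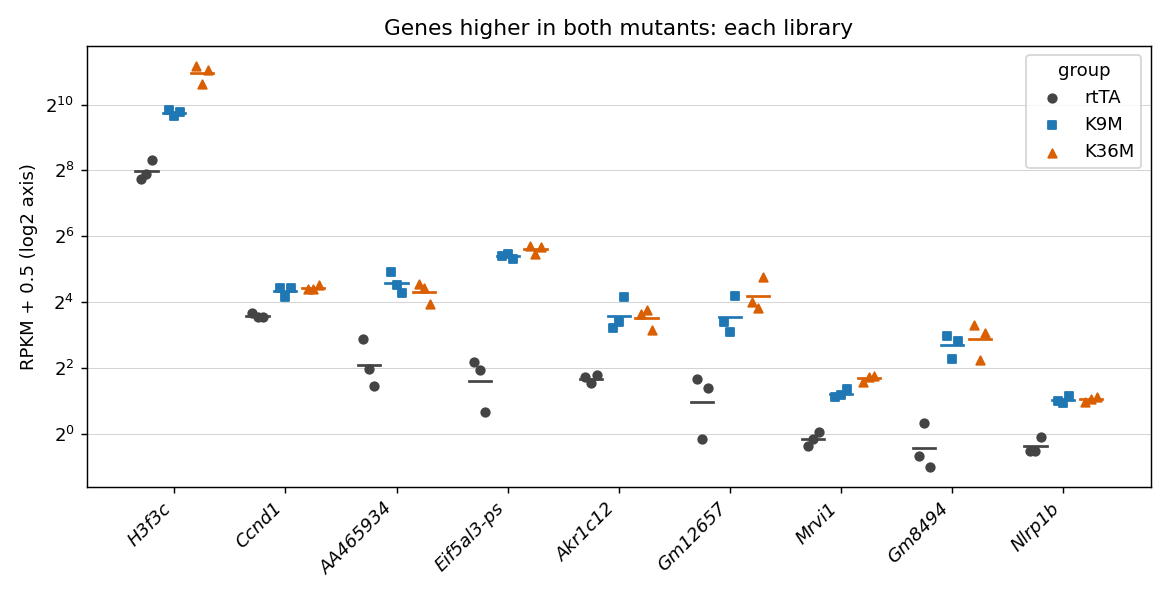
Level of the 9 genes that rose, as RPKM + 0.5 on a log2 axis, in each library of rtTA (circles), K9M (squares) and K36M (triangles), with short lines at the group means of the log2 values. Ccnd1 (11.1 to 12.1 RPKM in rtTA, 17.5 to 22.3 RPKM in the mutants) is tight in every group, and H3f3c has separate K9M and K36M levels.

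The 6 further rises named by smallest p did not pass. Beside Xaf1 they were Nme3, a nucleoside diphosphate kinase (13.6 to 14.1 RPKM in controls, 17.4 to 21.0 RPKM in mutants, limma adjusted p = 0.0903), the helicase gene Dhx40 (limma adjusted p = 0.167), the imprinted gene Ndn (limma adjusted p = 0.176), the secreted factor gene Metrn (limma adjusted p = 0.189) and the small nuclear RNA Rnu5g (limma adjusted p = 0.247). Ndn encodes necdin, a growth suppressor of quiescent stem cells, and was at 2.55, 4.13 and 2.76 RPKM in the controls and 5.29 to 10.3 RPKM in the mutants (1.00, SE 0.21). Slamf1, the CD150 antigen of long-term stem cells, was at 0.884 to 0.993 RPKM against 1.26 to 1.86 RPKM (0.48, limma adjusted p = 0.610). Of 26 stem cell regulators and markers 0 passed, 22 differences were negative and the median was -0.16 (-0.03 in K9M and -0.29 in K36M).

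The mutants were then set against each other on the called genes, in a fit of 3 group means, by a contrast that does not use the control mean, with the spread shared over all 9 libraries. Of the 22, 1 was called (4.55%, beside 2.52% of all tested genes). A difference between the mutants widens the residual of the pooled fit and makes a call there less likely, so this count is set in part by how the 22 were chosen. The called gene was H3f3c, higher in K36M than in K9M by 1.20 (95% interval 0.77 to 1.63, limma adjusted p = 0.0207). For the other 21 genes a difference between the mutants did not pass, which does not show that they were alike. The interval was -0.25 to 0.30 for Btg2, -0.45 to 0.44 for Tcf7, -0.45 to 0.49 for Nlrp1b and -0.14 to 0.32 for Ccnd1. It lay above 0 for Mrvi1 (0.06 to 0.89), which was higher in K36M, and was -0.46 to 1.72 for Gm12657. It was wide for Egr1 (-1.24 to 0.26), Nr4a1 (-1.15 to 0.22) and Fos (-0.85 to 0.08), the 3 falls with the largest difference toward a lower K36M level. The difference from rtTA was larger in K36M for 18 of the 22 genes and for 11 of the 13 falls. The smaller of the 2 mutants' changes was between 0.61 (Btg1) and 3.8 (Eif5al3-ps). Both mutants were set against the same 3 control libraries, so an unusual control level moves both.

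**Figure D4:**
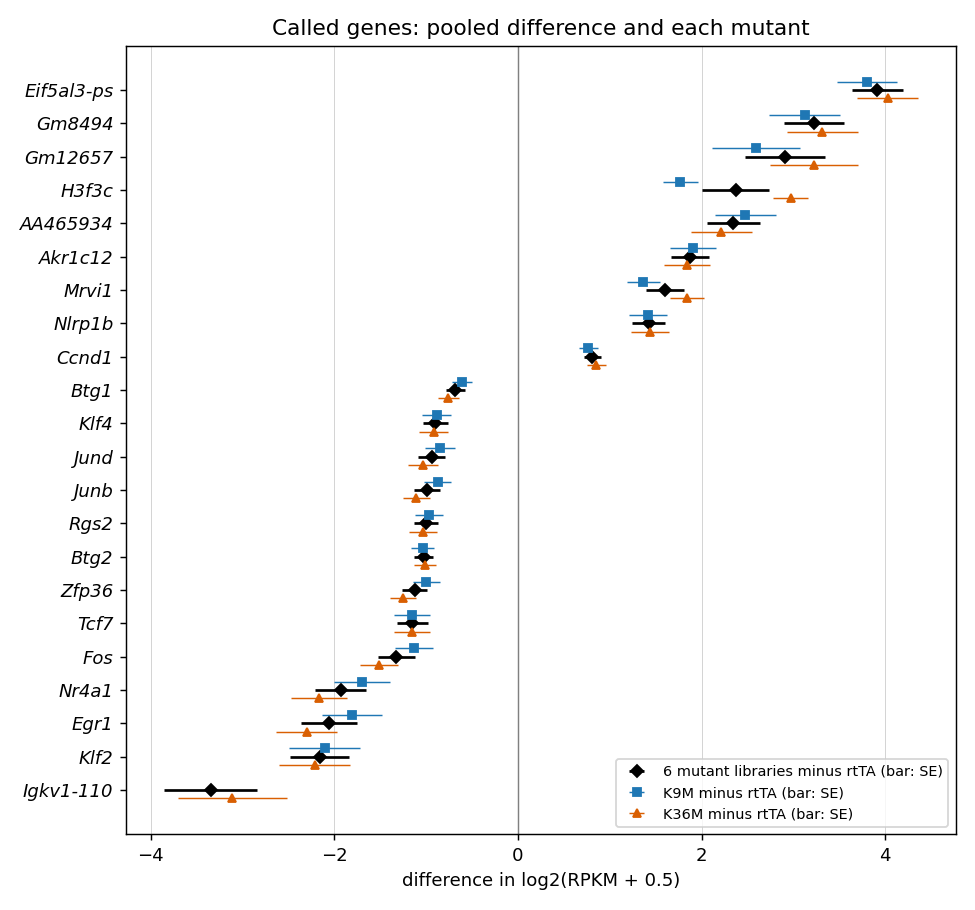
Difference in log2(RPKM + 0.5) from rtTA of each called gene for the 6 mutant libraries together (diamonds), for K9M (squares) and for K36M (triangles), with bars of 1 SE, the K9M point of Igkv1-110 left out because all 3 libraries are listed at 0. H3f3c is the gene with clearly separate mutants (1.77 and 2.97), and Btg2, Tcf7 and Nlrp1b have nearly the same value in both.

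The chromatin genes nearest to the mutations held no called member. Of 22 genes of H3K9 methylation 0 passed (median 0.03), with Suv39h2, an H3K9 methyltransferase of heterochromatin, at 2.07 to 2.93 RPKM in controls and 2.72 to 3.68 RPKM in mutants. Of 19 genes of H3K36 methylation 0 passed (median 0.02), with Whsc1, the NSD2 methyltransferase, at 8.98 to 12.4 RPKM and 11.4 to 16.3 RPKM. After quantile normalization these medians were -0.03 and -0.02. Of 29 Polycomb genes 0 passed (median -0.04). The germline list, genes often silenced by H3K9 methylation, had 2 of 22 members above the filter, neither called, and 6 at 0 in all 9 libraries. In the H3.3 list H3f3c was the 1 of 13 members called (beside 0.0696% of all tested genes called higher). Over the 32 lists, 26 held no called member.

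**Figure D5:**
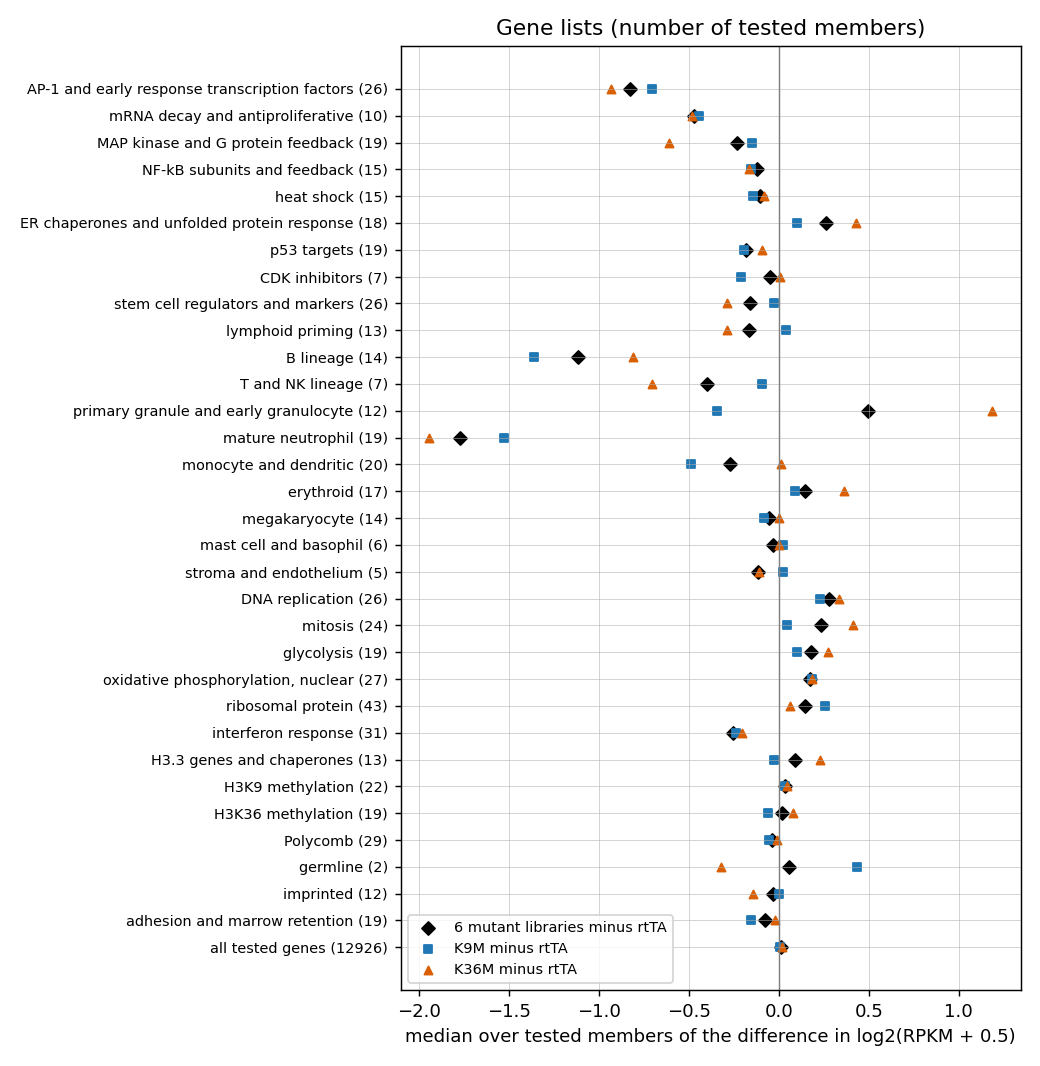
Median over tested members of the difference in log2(RPKM + 0.5) from rtTA for each gene list, for the 6 mutant libraries together (diamonds), K9M (squares) and K36M (triangles), with the number of tested members in parentheses and all tested genes at the bottom. Early response factors (-0.83), B lineage (-1.11) and mature neutrophil markers (-1.77) are farthest below 0, and primary granule genes have medians of opposite sign in K9M (-0.34) and K36M (1.19).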

How the data were processed

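Reads were handled with CASAVA 1.7 and STAR on build mm10, per the submitters' processing notes. No source used here states the STAR version or how multiply matching reads were counted. The authors deposited RPKM values, 1 column per library, which hide depth. With GENCODE M21 lengths, 50.6% to 52.4% of low values were whole reads within 0.02, so the depths are approximate. Of 37882 rows, 37607 matched M21 by identifier and 146 by symbol. Coordinates are M21 on mm10 and promoters RefSeq GRCm38.p6.

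Values were analysed as log2(RPKM + 0.5), a scale that understates changes of low genes. limma 3.58.1 (R 4.3.3) fitted 2 group means (6 mutant and 3 rtTA libraries), and eBayes used a mean-variance trend (7 residual and 3.14 prior degrees of freedom), two-sided, with Benjamini-Hochberg adjustment over 12926 genes. A gene on which the mutants differ has a larger residual in this fit and is called less easily. A fit of 3 group means gave the value in each mutant and K36M minus K9M. The pooled fit was tested on simulated data, where it called 78 of 100 genes with a 2-fold change in both mutants. With a 4-fold change in 1 mutant only, it called 1 of 100 for K36M and 0 of 100 for K9M. Copies were found with blastn 2.17.0 (90% identity or more across 300 bases or more).

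The comparison and the 32 gene lists were chosen with earlier results of these data known, so no list is independent evidence. Of 660 list entries, 5 were not matched and 87 were below the filter. The genes named were Kit, Ly6a, Col1a1, H3f3a and H3f3b, up to 12 called rises and 12 called falls with groups apart, ordered by the smaller of the mutants' changes (symbols that are model numbers not named, except Eif5al3-ps and H3f3c), filled by smallest p, the 3 called genes with the largest K36M minus K9M difference each way, and for each list up to 4 called or 2 uncalled members by smallest p. Other members of the described families were named after their values were seen. Alternatives changed the pseudocount, the filter, the scaling, the prior or the weights of libraries, or added a replicate block, a 1.5-fold minimum, or left out pseudogenes or each library. Leaving out chromosome 11 was chosen after seeing the data.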

Additional observations from a re-analysis of the deposited data

Results flagged for a closer look

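In 113 values checked for 1 library far from the other 5 of the mutant group (the gap to the nearest library as a share of the whole range, above 0.625), 8 stood out, and chance gives about 1 in 20. Nr4a1 had a share of 0.72, set by K36M 3 at 8.44 RPKM. Ccnd1 had 0.628, set by K9M 2 at 17.5 RPKM, the lowest mutant library and still above the controls. Igkv1-110 had 1, since K36M 1 at 0.833 RPKM was the only mutant library above 0. Cdkn2b had 0.674, set by K36M 3 at 0.969 RPKM, and Psip1, a reader of H3K36 methylation, had 0.67, set by K9M 2 at 46.2 RPKM. Sdhb, a subunit of respiratory complex II, had 0.707 and the imprinted gene Impact 0.769, both set by K36M 1 (61.9 and 5.20 RPKM). The mean of the adhesion and marrow retention list had 0.682, set by K36M 3. No cause was tested for these.

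On 2 named genes the mutants differed by a test of K36M minus K9M itself. H3f3c was higher in K36M by 1.2 on the log2 scale (limma adjusted p = 0.0207), above the controls in both mutants. Ddx4, a germline helicase gene, was lower in K36M than in K9M (-1.29, limma adjusted p = 0.0383). It was at 4.06 to 5.68 RPKM in rtTA, 5.59 to 9.92 RPKM in K9M and 2.27 to 4.23 RPKM in K36M, so the mutants lay on either side of the controls and the pooled difference was -0.01.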

How the results depend on the processing

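The pooled comparison called 22 genes. The count was 8 with no filter (25824 genes tested, 6 of the 22 among them), 14 after quantile normalization, 46 with 3 group means (38 of them with groups apart), 13 with no mean-variance trend, 36 with library weights and 2 when at least a 1.5-fold change was required (Eif5al3-ps and Gm8494). It was 16 to 23 in the other alternatives and 1 to 20 when 1 library was left out. Except with 3 group means, every called gene among these also had its groups apart. K36M against K9M called 326 genes, 118 with no filter, 589 with library weights, 3 at a 1.5-fold change, and 15 to 509 without 1 library. All 22 genes kept their sign in each alternative in which they were tested. Where the values were not rescaled, this follows from their groups being apart.

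With the replicate number as a block, 13 genes were called (12 of the 22, all 13 with groups apart), and 595 for K36M against K9M. The block ended the calls of Fos, Junb, Jund, Egr1, Nr4a1, Klf4, Btg1, H3f3c, Igkv1-110 and Mrvi1, and left 2 called members of the early response list in place of 7. Deviations of same-numbered libraries correlated at 0.369 to 0.414 between K36M and rtTA, 0.017 to 0.162 between K9M and rtTA, and -0.171 to 0.074 between K9M and K36M, so not every pair was over 0.1 and the number was not taken as a pairing in the pooled comparison. Each K36M library correlated best with the rtTA library of its own number, a hint from the data that K36M and rtTA share something by number, while K9M 3 did not. The labels do not say what a number marks.

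Signs turned in genes that were not called. Ddx4 had 0.0023 at a pseudocount of 1, 0.068 after quantile normalization and 0.10 with library weights, and between -0.21 and 0.17 when 1 library was left out, positive without each K36M library or rtTA 3. With library weights Ly6a had 0.15 and Cdkn2b 0.010. Over the leave-outs Ly6a ranged from -0.33 to 0.31, Cdkn2b from -0.74 to 0.030 and Stag3 from -0.18 to 0.42, with the sign turned without rtTA 1. The cause was not tested. At these depths 1 read in a 1 kb transcript was worth 0.0199 to 0.0631 RPKM, so the reads behind a low level depend on transcript length. Among the called genes, Igkv1-110 (401 bases) had about 13 reads in K36M 1. Tcf7 (2625 bases) had about 71 to 188 reads in the mutant libraries.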

Other observations

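Lists for metabolism, ER chaperones and ribosomal proteins had small positive medians in each mutant, of unlike size in some, and no called gene. All 27 nuclear genes of oxidative phosphorylation were positive (median 0.18, with 0.18 in K9M and 0.18 in K36M). Of these, 2 were at an unadjusted p under 0.05, each higher (beside 4.27% of all tested genes). After quantile normalization 4 of the 27 were negative and the median was 0.075, and the medians of glycolysis and ribosomal protein genes were 0.10 and 0.043. Glycolysis genes had a median of 0.18, with 0.10 in K9M and 0.28 in K36M. Pgk1, an enzyme of that pathway, was at 125 to 185 RPKM in rtTA and 171 to 286 RPKM in the mutants, with overlap (0.52, limma adjusted p = 0.566). ER chaperones had a median of 0.26, with 0.10 in K9M and 0.43 in K36M. Of 18 tested, 4 were apart, all higher (22.2%, beside 2.43% of all tested genes). Pdia6, a disulfide isomerase, was at 60.0 to 72.9 RPKM in rtTA and 78.9 to 110.1 RPKM in the mutants (0.42, limma adjusted p = 0.504). Ribosomal protein genes had a median of 0.15, with 0.26 in K9M and 0.06 in K36M. Interferon response genes had a median of -0.26, with 26 of 31 negative and 0 called.

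Selp, which encodes the adhesion receptor P-selectin and was on the megakaryocyte list, was at 1.51, 0.665 and 1.54 RPKM in rtTA 1 to 3, 3.31, 1.81 and 2.82 in K9M and 7.56, 4.18 and 7.12 in K36M. The 3 groups did not overlap, and the pooled difference did not pass (1.42, SE 0.39, limma adjusted p = 0.489). Of the 14 tested members of that list 0 passed, and the median was -0.06.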
